A study of Rattus norvegicus with 9 samples.

Results

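Collagens are the trimeric proteins that give the extracellular matrix its shape and strength. The genes described here are the rat protein-coding genes whose symbols name a collagen alpha chain and that gathered at least 45 reads over the 9 rats of the study. Of 44 chains in the table, 40 met this rule, among 37209 genes in all and 23422 genes typed as mRNA. The nearest above the limit were Col22a1 with 48 reads and Col10a1 with 49 reads, and the nearest below it were Col6a4 and Col15a1 with 24 reads each and Col14a1 with 18 reads. Of the 40, 34 had enough reads to be tested, and they are the members counted in each comparison.

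The study asked how early life stress and later electroacupuncture (EA) alter gene expression in the frontal cortex, and it sequenced 3 male rats in each of 3 groups at 14 weeks of age. Control pups stayed undisturbed with their mothers until weaning. MS pups underwent maternal separation, with the mothers removed to another cage for 4 h per day from postnatal day (PND) 1 to PND 21. MS+EA rats had the same separation and then received EA at the acupoints GV20 (Baihui) and GV29 (Yintang) every other day from PND 61 to PND 81 under anaesthesia, which the Control and MS rats also received. No sham EA rats were sequenced, so EA and its handling cannot be told apart. The rats are named A1, A2 and A6 in Control, B3, B4 and B6 in MS, and C3, C10 and C16 in MS+EA, and values are given in that order throughout. Each sample is from 1 rat by its name, whether the rats of a group were littermates is not given in the sources used here, and the p-values measure the spread between these rats.

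In the brain, most collagen lies outside the neural tissue itself. Fibrillar collagens, mainly types I, III and V, form the cable-like fibrils of the meninges and of the outer walls of larger vessels and are made chiefly by fibroblasts. Type IV collagen forms a network instead of fibrils, and this network is the scaffold of the basement membrane that lies under the endothelium around every capillary and under the pial surface. A type IV molecule is built from set combinations of 6 alpha chains, and the genes for these chains lie in head-to-head pairs. Type XVIII collagen is a proteoglycan of the same membrane. The remaining classes attach to fibrils (FACIT collagens), form beaded filaments (type VI), build hexagonal nets (types VIII and X), anchor epithelia (type VII) or span the cell membrane.

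By class, 11 members were fibrillar, 7 belonged to the basement membrane, 8 were FACIT, 5 were of the beaded filament class, 4 were transmembrane, 3 formed hexagonal networks, and Col7a1 (anchoring fibril) and Col26a1 (no class given here) stood alone. The 6 members with too few reads for a test were Col2a1, Col10a1, Col17a1, Col22a1, Col23a1 and Col25a1. The highest count of any of them in any rat was 16 reads, for Col22a1 in B4. Col2a1, the chain of cartilage fibrils, had 0 to 8 reads in the Control rats, 3 to 9 in the MS rats and 4 to 14 in the MS+EA rats, Col17a1 had 6 to 11, 3 to 9 and 0 to 8, and Col25a1, a chain of neuronal membranes, had 3 to 15, 3 to 6 and 8 to 14. Col10a1 and Col23a1 had at most 11 reads in any rat. These 6 members were not kept by the filter on low counts and were not tested. All 7 basement membrane members and 10 of 11 fibrillar members were tested.

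The libraries held 16153292 to 19007907 counts in Control, 16106381 to 17243320 in MS and 12479905 to 14913736 in MS+EA, so every MS+EA library was shallower than every other. Levels are given as CPM, the reads of a gene scaled to a common library size by the trimmed mean of M values. They are not divided by transcript length, so they are compared between rats and not between genes. Summed CPM of 8 cortical neuron markers ran from 5060 to 6579 over the 9 rats, so RNA of cortical neurons was present in every library, and 6 striatal neuron markers summed to 220.1 to 259.7 CPM. B4 stood apart for collagens and for the markers of meningeal fibroblasts described further on, and values fitted without it are given beside many of the results. In bulk tissue, fewer cells of a type and less RNA per cell cannot be told apart.

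A set of 4 stretches of sequence shows how the type IV genes are arranged, with a stretch of the Col1a2 gene beside them. They are from RefSeq on the GRCr8 build, whose promoter table held 32 of the 40 members, and they were not read from these rats. The counts themselves were made on Rnor_6.0. Col4a1 and Col4a2, on opposite strands of chromosome 16, have annotated starts only 76 bases apart, and the whole spacer is shown on the Col4a1 strand, chr16:84885521-84885596. Col4a5 and Col4a6 likewise diverge on chromosome X, with 1414 bases between their starts, and the 100 bases before each start are shown, chrX:109907259-109907358 on the plus strand for Col4a5 and chrX:109905945-109906044 on the minus strand for Col4a6. For Col1a2 the bases from 250 to 141 before the annotated start are shown, chr4:33518307-33518416 on the plus strand. Capitals mark matches, on either strand, to CCAAT, to GGGCGG (the GC box) or to TATAAA (the TATA box), which do not overlap each other here.
Col4a1 and Col4a2 spacer: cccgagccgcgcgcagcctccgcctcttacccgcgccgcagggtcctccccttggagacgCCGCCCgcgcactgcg
Col4a5 upstream: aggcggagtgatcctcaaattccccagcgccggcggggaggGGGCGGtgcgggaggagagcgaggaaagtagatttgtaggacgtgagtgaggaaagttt
Col4a6 upstream: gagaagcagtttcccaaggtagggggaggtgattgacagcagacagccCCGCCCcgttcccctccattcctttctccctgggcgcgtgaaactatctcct
Col1a2 upstream: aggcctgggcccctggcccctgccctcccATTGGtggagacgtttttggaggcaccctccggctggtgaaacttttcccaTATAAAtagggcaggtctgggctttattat

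The 3 type IV stretches each held 1 GGGCGG match and no CCAAT or TATAAA match, and the Col1a2 stretch, which lies farther from its start, held 1 CCAAT match and 1 TATAAA match and no GGGCGG. The difference in CCAAT holds for these stretches only, since over the 250 bases before the start Col4a1 and Col4a2 held CCAAT as well. Among all 33469 promoters of the table, GGGCGG occurred in 18.1% of windows of 76 bases and in 21.6% of windows of 100 bases at the same place, and windows of 110 bases held CCAAT in 15.9% and TATAAA in 5.86%. Over the full 250 bases before the start, GGGCGG occurred in 19 of the 32 collagens against 30.5% of all promoters, CCAAT in 9 against 34.0%, and TATAAA in 4 against 12.9%. These matches describe the letters only.

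Across the 34 tested collagens, none passed both thresholds (edgeR adjusted p under 0.05 and a fold change over 1.5) in MS against Control, where 0.0238% of all tested genes passed. None passed in MS+EA against MS, where 0.0178% of all genes passed. A single collagen passed in MS+EA against Control, Col26a1, against 1.37% of all genes. Col26a1 had 4, 2 and 3 reads in Control and entered the test only through separated rats. DESeq2 gave 1, 1 and 3 collagens in the same order. Leaving out B4 left the first and second counts at 0 and brought the last to 8, namely Col1a1, Col1a2, Col3a1, Col4a5, Col4a6, Col5a1, Col6a3 and Col26a1, while none passed in MS+EA against Control without A1, B6, C3 or C16. Below that threshold the collagens lay mostly on the higher side of Control. In MS, 26 of 34 had a log2 fold change above 0 against 49.7% of all genes, and in MS+EA 31 of 34 against 50.9%. MS+EA against MS gave 22 of 34 against 50.1%.

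At an unadjusted edgeR p under 0.05, 11 of 34 collagens were higher in MS than in Control and none was lower, where 7.06% of all genes were higher and 3.55% lower. From MS to MS+EA, 4 were higher and none lower, against 6.01% and 6.42% of all genes. Of the 34, 17 were higher in MS+EA than in Control and none lower, against 11.9% and 10.6%. The 3 comparisons are not independent, since each group of rats enters 2 of them. Without B4, 3 of the 34 were higher in MS than in Control (4.76% of all genes) and Col11a1 was lower, and 18 were higher in MS+EA than in Control (12.5%). Without C16 the last count was 6 (10%). With both rats left out, 5 collagens were higher in MS than in Control (4.85%), Col11a1 was lower, and 15 were higher in MS+EA than in Control (10.8%).

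The number of collagens whose rats did not overlap between groups was 8 higher in MS than in Control (10% of all genes), 5 higher in MS+EA than in MS (8.27%) and 11 higher in MS+EA than in Control (13.0%). No collagen was lower without overlap in any comparison, against 7.53%, 9.60% and 12.9% of all genes in the same order.

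**Figure D1:**
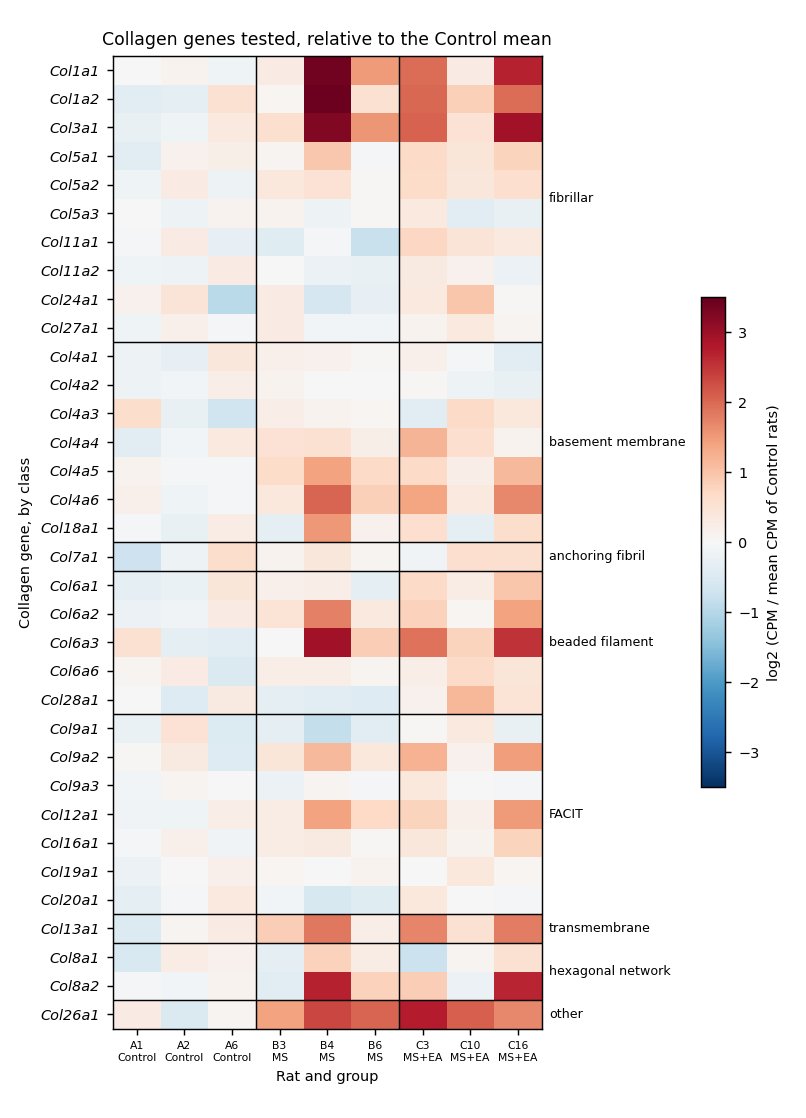
Heat map of the 34 tested collagens (rows, grouped by class) in the 9 rats (columns), coloured by log2 of the CPM over the mean CPM of the Control rats. The column of B4 is deep red for Col1a1, Col1a2, Col3a1, Col6a3 and Col8a2, Col26a1 is red in all 6 separated rats, and the Col4a1 and Col4a2 cells are pale in every rat.

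The fibrillar class had a median log2 fold change of 0.18 in MS against Control, 0.18 in MS+EA against MS and 0.53 in MS+EA against Control (all tested genes -0.00, 0.00 and 0.01). Of its 10 tested members, 4 were higher at an unadjusted p under 0.05 in MS against Control (7.06% of all genes), 1 in MS+EA against MS (6.01%) and 6 in MS+EA against Control (11.9%). Without B4 the first 2 medians were 0.086 and 0.55, with 1 and 3 members higher (4.76% and 4.73% of all genes). The basement membrane class had medians of 0.42, -0.17 and 0.35, with 2, 0 and 3 of its 7 members at an unadjusted p under 0.05, all of them higher, beside the same shares of all genes. Its median in MS against Control was 0.13 without B4, and that in MS+EA against MS turned to 0.14. In MS+EA against Control the median was 0.23 without C16, 0.55 without A1 and 0.59 without C10. Within both classes the values differed widely from chain to chain.

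Col1a1 and Col1a2 encode the chains of type I collagen, the main protein of fibrils in connective tissue. Col1a1 had 6.96, 7.68 and 6.34 CPM in the Control rats, 8.57, 72.8 and 19.8 CPM in the MS rats and 27.2, 8.58 and 45.5 CPM in the MS+EA rats. All rats of both separated groups were above the highest Control rat, although B3 and C10 were above it by little. The mean was 6.99 ± 0.671 CPM in Control, 33.7 ± 34.3 CPM in MS and 27.1 ± 18.5 CPM in MS+EA (SD, n = 3 each). The log2 fold change of Col1a1 in MS against Control was 2.26 ± 0.68 (SE, edgeR adjusted p = 0.228), and without B4 it was 1.01. Between MS+EA and MS it was -0.32 (edgeR adjusted p = 0.874), turning to 0.94 without B4, and between MS+EA and Control 1.94 (edgeR adjusted p = 0.114), or 1.35 without C16.

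Col1a2 had 0.910, 0.915 and 1.68 CPM in Control, 1.23, 12.6 and 1.68 CPM in MS and 4.72, 2.08 and 4.53 CPM in MS+EA. Within MS only B4 stood clear of the Control rats, with B6 level with A6, whereas all 3 MS+EA rats lay above them. Its log2 fold change in MS against Control was 2.14 ± 0.75 (SE, edgeR adjusted p = 0.306) and dropped to 0.32 without B4. Against Control the MS+EA rats gave 1.69 (edgeR adjusted p = 0.213), and the Col1a2 value in MS+EA against MS turned from -0.45 to 1.38 without B4. These Col1a2 levels rest on few reads, 15 to 27 in the Control rats and 201 in B4.

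Col3a1 encodes type III collagen, which co-assembles with type I in soft tissues and vessel walls. Its levels were 8.62, 9.27 and 13.0 CPM in Control, 15.1, 97.5 and 29.9 CPM in MS and 43.0, 14.7 and 79.0 CPM in MS+EA. Every separated rat lay above every Control rat, and the rank of the rats within each group of separated rats was that of Col1a1. The log2 fold change of Col3a1 was 2.21 ± 0.64 in MS against Control (SE, edgeR adjusted p = 0.213), 1.13 without B4, and 2.14 ± 0.65 in MS+EA against Control (SE, edgeR adjusted p = 0.0708), or 1.49 without C16. Between MS+EA and MS it was -0.06 (edgeR adjusted p = 0.978), with a standard error of 0.59, and 1.03 without B4.

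Summed over Col1a1, Col1a2 and Col3a1, a group formed after their values were seen, the Control rats had 16.48 to 21.02 CPM. B3, B4 and B6 had 24.84, 182.9 and 51.35 CPM, and C3, C10 and C16 had 74.93, 25.33 and 129.1 CPM. With the spread pooled over the 3 groups, type I and III chains were among the most variable genes of the table. The SD of log2 CPM within groups was 1.14 for Col1a1, 1.11 for Col1a2 and 1.07 for Col3a1. These put them at the 99.5th, 99.4th and 99.2nd percentiles of all tested genes. The spread was unequal between groups. For Col1a1 and Col3a1 the SD was 0.671 and 2.36 CPM in Control. It was 34.3 and 44.0 CPM in MS and 18.5 and 32.2 CPM in MS+EA, where the means were higher too.

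**Figure D2:**
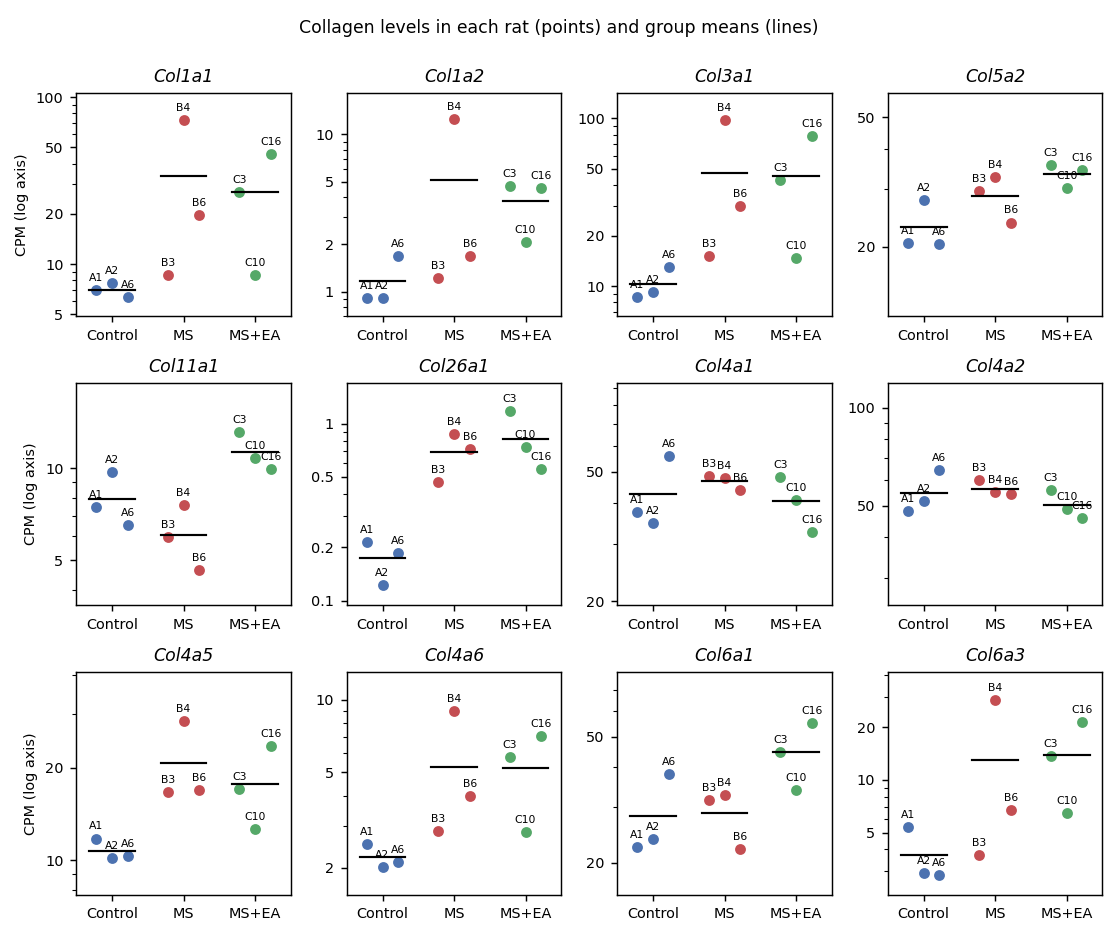
CPM (log axis) of 12 collagens in each rat (points, labelled) with group means (lines). B4 is the top point for Col1a1, Col1a2, Col3a1, Col4a5, Col4a6 and Col6a3, C3 is the top point for Col11a1 and Col26a1, and for Col4a1 and Col4a2 the 3 groups overlap.

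Type V collagen sits inside type I fibrils and sets their diameter. Col5a2 had 20.5, 27.9 and 20.4 CPM in Control, 29.7, 32.7 and 23.8 CPM in MS and 35.6, 30.4 and 34.4 CPM in MS+EA. The MS+EA rats lay above all Control rats and the MS rats overlapped with both groups. For Col5a2 the log2 fold change in MS+EA against Control was 0.54 ± 0.15 (SE, edgeR adjusted p = 0.0486), a fold change of 1.46 that stayed under the 1.5 required for a call. Against MS it was 0.22 (edgeR adjusted p = 0.558), and MS against Control gave 0.33 (edgeR adjusted p = 0.457), or 0.22 without B4.

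Col5a1, its partner chain, had 12.6, 18.4 and 19.1 CPM in Control, 17.9, 32.0 and 16.1 CPM in MS and 26.5, 22.4 and 28.6 CPM in MS+EA. Again the MS+EA rats did not overlap with Control, with a log2 fold change of 0.63 (edgeR adjusted p = 0.133). Col5a3, the third type V chain, gave 24.9, 21.8 and 26.9 CPM in Control, 26.5, 21.7 and 25.1 CPM in MS and 31.0, 18.9 and 20.7 CPM in MS+EA, and its 3 groups overlapped with log2 fold changes between -0.06 and -0.01.

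Type XI collagen is the counterpart of type V in cartilage fibrils, and its chains are also expressed in neural tissue. Col11a1 was the collagen with the smallest p in MS+EA against MS. It had 7.49, 9.70 and 6.53 CPM in Control, 5.95, 7.57 and 4.63 CPM in MS and 13.2, 10.8 and 9.94 CPM in MS+EA. All MS+EA rats were above all MS and all Control rats, and B4 lay within the Control range. The log2 fold change was 0.90 ± 0.21 in MS+EA against MS (SE, edgeR adjusted p = 0.184), and it was 1.10 without B4. MS against Control gave -0.39 (edgeR adjusted p = 0.529), -0.58 without B4, and MS+EA against Control 0.52 (edgeR adjusted p = 0.153). DESeq2 gave an adjusted p of 0.0136 for Col11a1 in MS+EA against MS, and over all alternatives it ranged from 0.0136 to 0.407.

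Col11a2 had 54.9, 53.4 and 73.7 CPM in Control, 60.7, 53.0 and 50.6 CPM in MS and 75.3, 67.0 and 52.5 CPM in MS+EA, and its groups overlapped in all 3 comparisons. Col24a1 and Col27a1, chains of the minor fibrillar types, had log2 fold changes of -0.15 and 0.04 in MS against Control and of 0.66 and 0.15 in MS+EA against MS, with overlapping rats. Among the tested fibrillar chains, those with a log2 fold change above 1 against Control were Col1a1, Col1a2 and Col3a1.

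Col4a1 and Col4a2 encode the 2 chains of the common type IV molecule found in every capillary wall, and their genes are the closely spaced pair whose spacer is printed here. Col4a1 had 37.6, 34.8 and 55.7 CPM in Control, 48.3, 47.7 and 43.9 CPM in MS and 48.1, 40.9 and 32.7 CPM in MS+EA. Col4a2 had 48.3, 51.8 and 64.6 CPM in Control, 60.0, 55 and 54.5 CPM in MS and 56.1, 48.9 and 45.8 CPM in MS+EA. For both genes the 3 groups overlapped, A6 was the highest rat and B4 lay in the middle of the range.

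The log2 fold changes of Col4a1 were 0.13 ± 0.17 in MS against Control, -0.20 ± 0.17 in MS+EA against MS and -0.07 ± 0.17 in MS+EA against Control (SE, edgeR adjusted p = 0.830, 0.660 and 0.854). Those of Col4a2 were 0.04 ± 0.11, -0.17 ± 0.11 and -0.13 ± 0.11 (SE, edgeR adjusted p = 0.927, 0.564 and 0.548). Against Control, the sign of both depended on which rat was left out. Their SD of log2 CPM within groups was 0.268 for Col4a1 and 0.159 for Col4a2, the 67.7th and 44.8th percentiles of all tested genes.

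Col4a5 and Col4a6 take part in another type IV network, which occurs in basement membranes around smooth muscle. Col4a5 had 11.8, 10.2 and 10.3 CPM in Control, 16.7, 28.3 and 17.0 CPM in MS and 17.1, 12.6 and 23.5 CPM in MS+EA. Both groups of separated rats lay above all Control rats. Of all collagens it had the smallest p in MS against Control, with a log2 fold change of 0.94 ± 0.23 (SE, edgeR adjusted p = 0.164), and it was 0.64 without B4. DESeq2 gave an adjusted p of 0.0103 for Col4a5 in this comparison, and over all alternatives it ranged from 0.00178 to 0.494. For Col4a5 the log2 fold change came to 0.71 in MS+EA against Control (edgeR adjusted p = 0.0967), 0.46 without C16, and to -0.23 in MS+EA against MS (edgeR adjusted p = 0.727), 0.076 without B4.

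Col4a6 had 2.52, 2.01 and 2.11 CPM in Control, 2.86, 9.01 and 3.97 CPM in MS and 5.76, 2.81 and 7.08 CPM in MS+EA, also without overlap between Control and either separated group. Its log2 fold change was 1.24 in MS against Control (edgeR adjusted p = 0.285), 0.62 without B4, and 1.22 in MS+EA against Control (edgeR adjusted p = 0.107). B4 was again the highest rat and B3 and C10 the lowest of their groups.

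Col4a3 and Col4a4 are the chains that, with Col4a5, make the network known from kidney and lung. Col4a3 had 1.23, 0.671 and 0.497 CPM in Control, 0.933, 0.876 and 0.842 CPM in MS and 0.624, 1.27 and 1.03 CPM in MS+EA. Col4a4 had 1.71, 2.07 and 2.80 CPM in Control, 3.09, 3.19 and 2.52 CPM in MS and 5, 3.28 and 2.38 CPM in MS+EA. The groups overlapped for both, and Col4a4 had a log2 fold change of 0.70 in MS+EA against Control (edgeR adjusted p = 0.190), or 0.38 without C3.

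Col18a1, the precursor of the fragment endostatin, had 9.74, 8.6 and 12.4 CPM in Control, 8.11, 29.1 and 11.4 CPM in MS and 15.3, 8.31 and 15.6 CPM in MS+EA. Only B4 stood clear of the other rats, and the log2 fold change was 0.66 in MS against Control (edgeR adjusted p = 0.569), or -0.074 without B4.

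**Figure D3:**
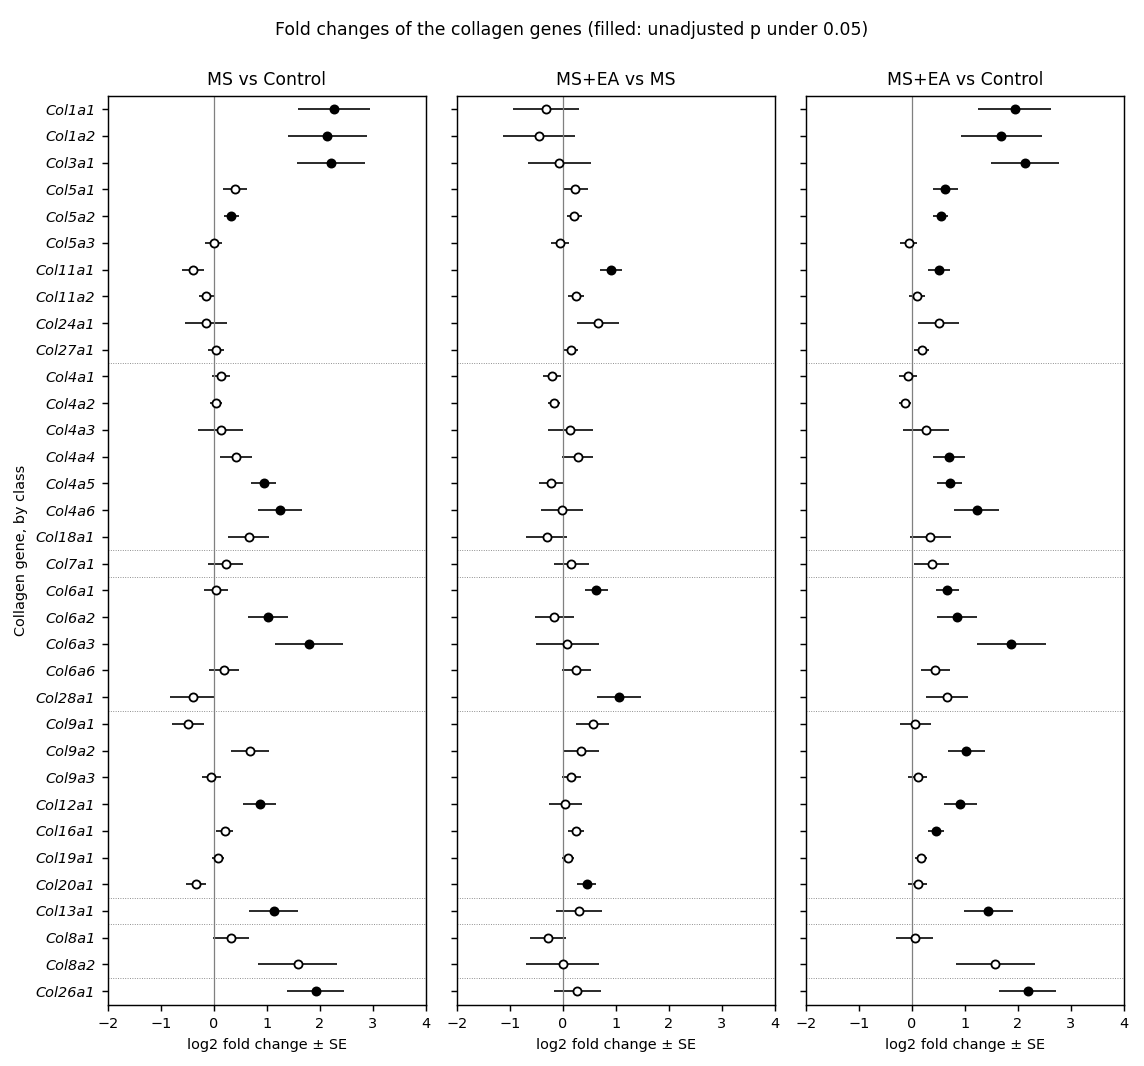
log2 fold change of each tested collagen (points, with bars of 1 SE either side) in the 3 comparisons, grouped by class, with filled points for an unadjusted edgeR p under 0.05. Filled points all lie to the right of 0, there are 11, 4 and 17 of them in the 3 panels, and the points of Col4a1 and Col4a2 lie near 0 in each.

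Type VI collagen forms beaded filaments that lie between fibrils and basement membranes. Col6a3 had 5.35, 2.93 and 2.86 CPM in Control, 3.73, 28.7 and 6.73 CPM in MS and 13.7, 6.43 and 21.4 CPM in MS+EA. B4 was the highest, B3 lay within the Control range, and all MS+EA rats lay above Control. The log2 fold change was 1.80 in MS against Control (edgeR adjusted p = 0.319), 0.48 without B4, and 1.88 in MS+EA against Control (edgeR adjusted p = 0.106).

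Col6a2 had 7.07, 7.50 and 10.1 CPM in Control, 11.4, 28.0 and 10.5 CPM in MS and 14.3, 8.64 and 21.9 CPM in MS+EA, and MS did not overlap with Control although A6 and B6 were close. Its log2 fold change in MS against Control was 1.02 (edgeR adjusted p = 0.346) and 0.42 without B4, and in MS+EA against Control it was 0.86, or 0.48 without C16. Col6a1, its neighbour on the chromosome, had 22.4, 23.8 and 38.0 CPM in Control, 31.6, 32.7 and 22.1 CPM in MS and 44.7, 33.8 and 55.2 CPM in MS+EA. For Col6a1 it was the MS+EA rats that lay above all MS rats (log2 fold change 0.63 in MS+EA against MS, edgeR adjusted p = 0.300), whereas MS against Control gave 0.04 (edgeR adjusted p = 0.972).

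Col28a1, a related beaded filament chain, had 0.749, 0.549 and 0.933 CPM in Control, 0.583, 0.563 and 0.541 CPM in MS and 0.833, 1.68 and 1.03 CPM in MS+EA. Its log2 fold change was 1.06 in MS+EA against MS (edgeR adjusted p = 0.329), without overlap between these groups, and 0.72 without C10. The reads were few, 10, 9 and 9 in MS and 12, 25 and 13 in MS+EA. Col6a6 ranged from 1.31 to 2.95 CPM over all rats with overlapping groups.

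FACIT collagens decorate the surface of fibrils. Col12a1, which binds type I fibrils, had 24.7, 24.3 and 31.6 CPM in Control, 32.0, 71.9 and 43.2 CPM in MS and 46.1, 30.4 and 76.0 CPM in MS+EA. The MS rats lay above the Control rats, B3 by a small margin, and C10 lay within the Control range. The log2 fold change of Col12a1 was 0.87 in MS against Control (edgeR adjusted p = 0.319), 0.48 without B4, and 0.92 in MS+EA against Control (edgeR adjusted p = 0.103), or 0.51 without C16.

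Col9a2 had 2.19, 2.62 and 1.55 CPM in Control, 2.86, 4.63 and 2.77 CPM in MS and 4.93, 2.35 and 5.80 CPM in MS+EA. It did not overlap between Control and MS, and its log2 fold change in MS+EA against Control was 1.03 (edgeR adjusted p = 0.104). Col9a3, its partner in type IX collagen, stayed between 4.90 and 7.21 CPM in all rats. Col9a1 was higher in every MS+EA rat than in every MS rat, with 3.12, 3.82 and 2.54 CPM against 2.45, 1.69 and 2.29 CPM (log2 fold change 0.56, edgeR adjusted p = 0.468), while its Control rats had 2.57, 4.33 and 2.18 CPM.

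Col20a1 had 16.7, 20.3 and 26.7 CPM in Control, 20, 14.5 and 15.8 CPM in MS and 27.2, 21.2 and 20.4 CPM in MS+EA, with B4 the lowest rat of all. Its log2 fold change was 0.45 in MS+EA against MS (edgeR adjusted p = 0.341). Col16a1 had 14.1, 16.6 and 13.6 CPM in Control, 17.7, 18.2 and 15.2 CPM in MS and 19.5, 16.1 and 25.2 CPM in MS+EA, with a log2 fold change of 0.46 in MS+EA against Control (edgeR adjusted p = 0.108), or 0.27 without C16. Col19a1, a chain made by neurons, was steady, between 44.8 and 66.9 CPM over the 9 rats and with log2 fold changes of 0.07, 0.09 and 0.17 in the 3 comparisons.

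Col13a1, a membrane-spanning chain known from the neuromuscular junction, had 0.696, 1.04 and 1.18 CPM in Control, 1.75, 3.5 and 1.14 CPM in MS and 3.19, 1.41 and 3.34 CPM in MS+EA. All MS+EA rats exceeded the Control rats, and the log2 fold change was 1.44 in MS+EA against Control (edgeR adjusted p = 0.0876) and 1.13 in MS against Control (edgeR adjusted p = 0.405), or 0.58 without B4.

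Type VIII collagen forms hexagonal nets under endothelia, best known from the cornea. Col8a2 had 2.46, 2.38 and 2.80 CPM in Control, 1.92, 16.6 and 4.45 CPM in MS and 4.65, 2.21 and 16.2 CPM in MS+EA. B4 and C16 stood far above the rest, and B3 and C10 were below all Control rats. Its SD within groups, 1.21 on the log2 scale, was the largest of the collagens and at the 99.6th percentile of all genes. The log2 fold change was 1.58 in MS against Control (edgeR adjusted p = 0.477), or 0.32 without B4. Col8a1 ranged from 2.98 to 8.76 CPM, with overlapping groups. Col7a1, the anchoring fibril chain, lay between 1.5 and 3.79 CPM, also with overlapping groups.

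Col26a1, a chain first described in testis and ovary, was the collagen that passed both thresholds. It had 0.214, 0.122 and 0.186 CPM in Control, 0.467, 0.876 and 0.722 CPM in MS and 1.18, 0.737 and 0.556 CPM in MS+EA. No Control rat reached the lowest separated rat. The numbers of reads were small, 4, 2 and 3 in Control, 8, 14 and 12 in MS and 17, 11 and 7 in MS+EA. Col26a1 rose in MS+EA against Control by a log2 fold change of 2.19 ± 0.54 (SE, edgeR adjusted p = 0.0372). In MS against Control it was 1.92 ± 0.54 (SE, edgeR adjusted p = 0.196), 1.71 without B4, and in MS+EA against MS 0.27 (edgeR adjusted p = 0.844). It entered the test only through the separated rats, since the minimum of about 10 reads was not met in Control, and without C16 its adjusted p in MS+EA against Control was 0.0541 (edgeR, 0.0338 to 0.119 over all alternatives).

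The pattern among rats recurred over the collagens. B4 was the highest MS rat for 23 of 34 collagens, against 32.9% of all genes, and the highest of all 9 rats for 12, against 11.2%. C16 was the highest MS+EA rat for 15, against 30.9%, and C10 the lowest MS+EA rat for 17, against 33.6%. The collagens for which B4 was not highest in MS included Col4a1, Col4a2, Col5a3, Col11a2, Col19a1 and Col20a1.

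Summed over their list, markers of meningeal fibroblasts moved with the type I and III chains over the same rats. Of 14 listed markers 13 could be tested (Crabp2 could not), and their summed level was 50 to 65.83 CPM in Control, 71.55, 443 and 108.2 CPM in B3, B4 and B6, and 145.7, 67.81 and 219.2 CPM in C3, C10 and C16. Both separated groups thus ranked their rats as the collagen sum did. In MS against Control 11 of 13 markers were higher at an unadjusted edgeR p under 0.05 (7.06% of all genes) and none passed the adjusted threshold, with a median log2 fold change of 1.73. Without B4 the count was 4 (4.76% of all genes) and the median 0.64. MS+EA against MS gave a median of -0.35 with none at that p (6.01%), and MS+EA against Control 1.05 with 5 (11.9%). The last count was 10 without B4 (12.5% of all genes) and 1 without C16 (10% of all genes). Among the defining markers, Igf2 had 16.2, 12.9 and 15.3 CPM in Control, 25.5, 226 and 48.5 CPM in MS and 60.8, 25.5 and 102 CPM in MS+EA. In B4, Igf2 alone gave 226 of the summed 443 CPM. Ogn was at 0 in A1 and A2 and reached 10 reads only in separated rats, through which it entered the test. Foxd1, with 8, 8 and 6 reads in Control, likewise entered the test only through separated rats. Both are among the 11 markers counted as higher in MS. Dcn, in contrast, had a log2 fold change of 0.26 in MS against Control, or -0.57 without B4. Mgp had 0.98 in MS against Control and 0.14 in MS+EA against Control. For Mgp, B3 and B6 had 0.933 and 1.14 CPM, against 1.12 to 1.31 CPM in Control. The part of meningeal tissue in the collagen values was not tested.

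Endothelial markers, 9 tested, summed to 172.7 to 199.4 CPM in Control, 216.3 to 249.4 CPM in MS and 177.9 to 220.2 CPM in MS+EA, and pericyte and smooth muscle markers, 10 tested, to 217.4 to 250 CPM, 269.5 to 406 CPM and 234.3 to 293 CPM. B4 was highest for both, at 1.34 and 1.72 times the Control mean, against 9.91 times for the type I and III chains and 1.05 times for Col4a1 and Col4a2 together. At an unadjusted edgeR p under 0.05, 4 of 9 endothelial and 5 of 10 pericyte and smooth muscle markers were higher in MS than in Control (7.06% of all genes). None was lower. Without B4 the counts of higher markers were 4 and 3 (4.76%). From MS to MS+EA, 3 endothelial and 2 pericyte and smooth muscle markers were lower (6.42% of all genes) and 0 higher (6.01%). The median log2 fold changes were -0.25 and -0.27. Without B4, 2 and 0 were lower (3.66%) and 0 and 1 higher (4.73%). Against Control, 2 and 2 were higher in MS+EA (11.9%), and 1 and 0 lower (10.6%). Of 7 choroid plexus markers only 4 could be tested (Folr1, Clic6 and Otx2 could not), and they summed to 18.83 CPM in B4 and to 2.278 to 6.854 CPM in the other rats. Markers of astrocytes (2048 to 2823 CPM), oligodendrocytes (1742 to 3999 CPM) and microglia (249.1 to 319.3 CPM) were highest in C16, C3 and A1, in that order. Their part in the collagen values was not tested.

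**Figure D4:**
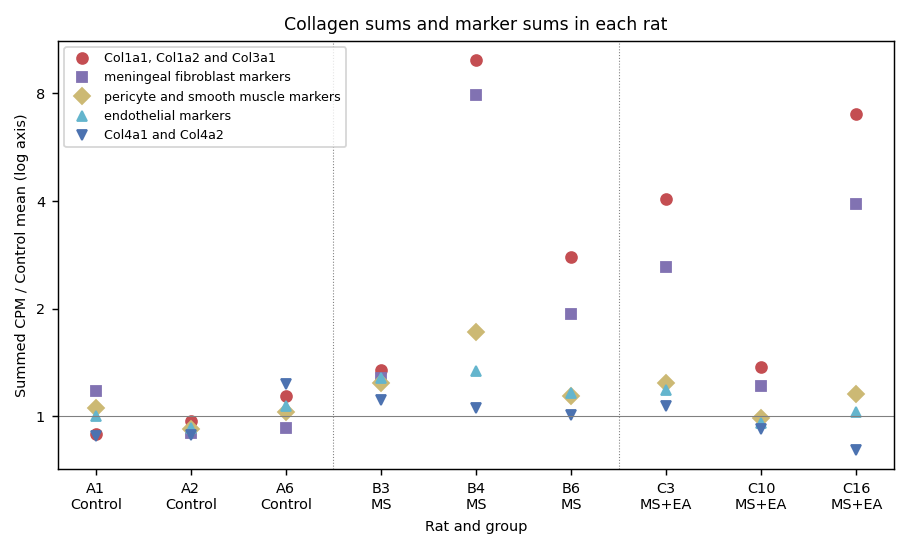
Summed CPM over the Control mean (log axis) of 2 sets of collagens and 3 sets of cell type markers in each rat. The type I and III chains and the meningeal fibroblast markers climb together in B4, B6, C3 and C16, while Col4a1 and Col4a2 remain close to 1 in all 9 rats.

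Chains that share a molecule differed in how closely they tracked each other. The log2 ratio of Col4a1 to Col4a2 had an SD of 0.128 over the 9 rats, below that of either chain alone (0.252 and 0.158). For Col1a1 and Col1a2 the SD of the ratio was 0.535 against 1.3 and 1.21 for the chains, with Col1a2 at 15 to 31 reads in 6 of 9 rats. Col4a5 and Col4a6 gave 0.321 against 0.511 and 0.763, and Col5a1 and Col5a2 gave 0.251 against 0.429 and 0.304.

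In the other 4 pairs the ratio varied more than at least 1 of its chains. Col6a1 and Col6a2 gave an SD of 0.528 against 0.453 and 0.671, Col8a1 and Col8a2 gave 0.947 against 0.492 and 1.17, Col9a2 and Col9a3 gave 0.556 against 0.597 and 0.157, and Col4a3 and Col4a4, both at few reads, gave 0.661 against 0.391 and 0.424. Col3a1 and Col5a2 are next to each other in the genome, yet their ratio had an SD of 1.12, whereas Col3a1 and Col1a1, which are not neighbours, had 0.253. The last 2 pairs were picked after their values were seen.

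**Figure D5:**
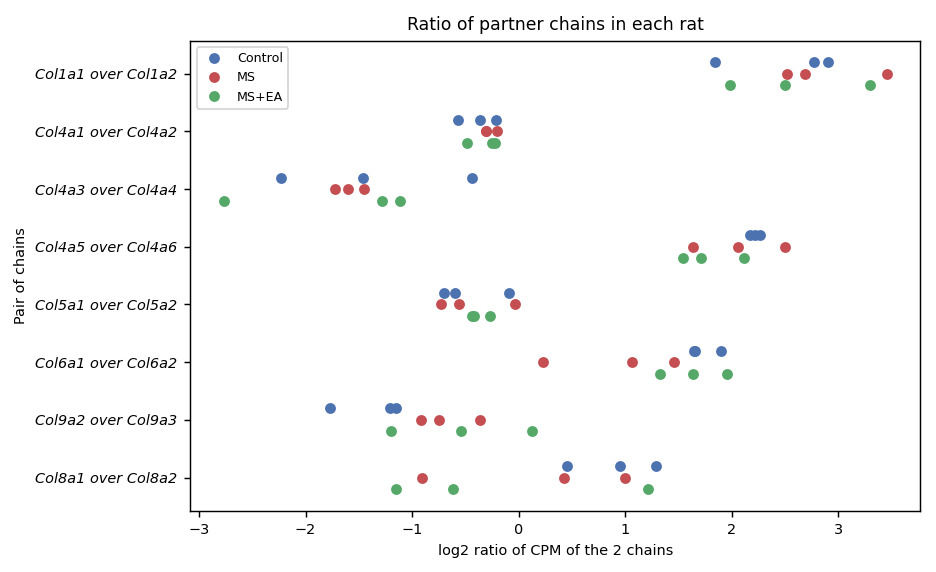
log2 ratio of CPM of the chains of 8 pairs in each rat (points, coloured by group). The points of Col4a1 over Col4a2 span 0.37 and those of Col8a1 over Col8a2 span 2.44 on the log2 scale.

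Genes that make, finish, bind and break down collagen were described from 6 lists, and none of their members passed both thresholds in MS against Control. Of 20 tested genes for chain folding and modification, 1 was higher in MS than in Control at an unadjusted edgeR p under 0.05 (7.06% of all genes), Plod2, a lysyl hydroxylase (log2 fold change 0.69, edgeR adjusted p = 0.400). The list had a median log2 fold change of 0.10. Of 14 genes for propeptide cleavage and crosslinking, 4 were higher. Lox, the lysyl oxidase that starts crosslinking, had 0.535, 1.71 and 1.18 CPM in Control, 3.27, 10.4 and 3.79 CPM in MS and 3.75, 2.14 and 6.68 CPM in MS+EA, without overlap between Control and the others. Its log2 fold change was 2.36 in MS against Control (edgeR adjusted p = 0.146) and 1.87 in MS+EA against Control (edgeR adjusted p = 0.0687). Loxl2, a related oxidase (log2 fold change 1.16), and Pcolce, which enhances removal of the C-propeptide (1.57), were next by p. Without B4, Plod2, Lox, Loxl2 and Pcolce gave log2 fold changes of 0.37, 1.64, 0.95 and 0.53. Of the 14 genes, 2 were then higher at that p (4.76% of all genes).

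Of 14 basement membrane partners, 6 were higher in MS than in Control at that p (7.06% of all genes), with a list median of 0.25. The smallest p belonged to laminin chains Lamc3 (log2 fold change 0.66) and Lama2 (0.79) and to nidogen Nid1 (0.99), which links laminin to type IV collagen (edgeR adjusted p from 0.241 to 0.280). Nid1 had 18.2, 15.6 and 13.8 CPM in Control, 20.7, 51.0 and 23.3 CPM in MS and 31.8, 19.5 and 43.3 CPM in MS+EA, again with B4 and C16 on top. Of 11 fibril partners, 5 were higher, with a list median of 0.59, led by the small proteoglycan Fmod (2.37), the matrix protein Thbs2 (2.15) and Ogn (3.5). Without B4 the counts were 2 of 14 and 3 of 11 (4.76% of all genes). The log2 fold changes were then 0.40 for Lamc3, 0.36 for Lama2, 0.47 for Nid1, 0.98 for Fmod, 1.27 for Thbs2 and 3.06 for Ogn. Ogn had 0, 0 and 2 reads in Control, 1, 13 and 12 in MS and 21, 5 and 5 in MS+EA. Like Col26a1, Ogn entered the test only through separated rats, and its fold change rests on a Control level near 0. Dcn, Lum and Ogn stand both on the fibril partner list and among the meningeal fibroblast markers.

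Of 8 collagen receptors tested, 2 were higher in MS than in Control at that p (7.06% of all genes). They were the integrin chain Itga1 (log2 fold change 0.81, edgeR adjusted p = 0.146) and the receptor kinase Ddr2 (0.96, edgeR adjusted p = 0.280). Of 12 genes for collagen breakdown, 2 were higher, the proteases Mmp14 (1.34, edgeR adjusted p = 0.178) and Mmp9 (0.83, edgeR adjusted p = 0.280). Mmp14 had 9.42, 5.79 and 6.40 CPM in Control, 10.6, 29.6 and 14.9 CPM in MS and 10.5, 5.76 and 11.4 CPM in MS+EA. Without B4 the log2 fold changes were 0.53 for Itga1, 0.45 for Ddr2, 0.81 for Mmp14 and 0.82 for Mmp9. The counts at that p were then 1 of 8 and 2 of 12 genes higher (4.76% of all genes).

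In MS+EA against MS no gene of these 6 lists passed both thresholds, and at an unadjusted edgeR p under 0.05 (6.01% of all genes higher, 6.42% lower) the lists held few genes. Higher were 1 of 20 for chain folding, 1 of 14 basement membrane partners and 2 of 12 for breakdown, and lower were 1 of 14 for propeptide cleavage and crosslinking, 1 of 8 receptors and 1 of 12 for breakdown, with 0 of 11 fibril partners either way. Leprel2, a prolyl hydroxylase, was higher (log2 fold change 0.29), as were the laminin chain Lamb3 (1.11), the protease Mmp16 (0.41) and the protease inhibitor Timp1 (2.60). Adamts14, a procollagen N-propeptidase (-1.06), Mmp14 (-1.0) and the type III collagen receptor Gpr56 (-0.23) were lower. Timp1 rested on a single rat, with 10.4 CPM in C16 and 0.233 to 1.06 CPM in the other 8 rats, and without C16 its log2 fold change was 0.33. For Mmp14 the value was -0.46 without B4. Against Control none was called either. Mmp16 had an adjusted p of 0.0127 (edgeR) with a log2 fold change of 0.51, under the fold required.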

How the data were processed

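Ribosomal RNA was removed from the total RNA of the frontal cortex of 9 rats before libraries were made and run on the HiSeq X platform of Illumina. The authors deposited whole-number read counts per gene, without normalization, and the submitters' processing notes name HISAT2 2.0.4 and Rnor_6.0. The counting program, its strand setting and its handling of reads from overlapping genes or with several locations are not given in the sources used here. No other per-sample column was left unused (0).

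Groups were taken from the sample labels. All 16837 genes kept by filterByExpr (minimum count 10) were fitted in edgeR 4.0.16 (R 4.3.3) with TMM normalization and the quasi-likelihood test on all 9 rats, which share 1 estimate of the spread, and p-values were adjusted by the Benjamini-Hochberg method over all tested genes. The study's thresholds were kept (adjusted p under 0.05, fold change over 1.5), and EBSeq, its test, was not used here. The common biological coefficient of variation was 12.67%. Replicate rats differed by 6.11 to 13.4 times the counting error, so none was a repeated library. The fit was tested on simulated counts with 200 changed genes. Alternatives were DESeq2 1.42.0, other normalizations and filters, 6 rats at a time and leaving out each rat. An SD is over 3 rats on the CPM scale unless log2 is named, log2 CPM used a prior count of 2, and an exact permutation test of 3 rats against 3 could not go below p = 0.1.

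The collagens and gene lists were chosen with earlier results of these data known. Values in every rat are given for the fibrillar and basement membrane members with the highest levels, for members past both thresholds or among the 8 smallest p per comparison, and for partner chains. Some members outside this rule also have them, including Col5a3, Col9a1, Col16a1 and Col18a1. From each pathway list at most 3 genes per direction and comparison were named, by smallest p. The rule asked for levels per transcript length. No transcript lengths were used here, so mean CPM took their place.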

Additional observations from a re-analysis of the deposited data

How the results depend on the processing

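Collagens past both thresholds were 0 in MS against Control in the fit reported, 1 with DESeq2 (Col4a5) and 8 when genes with at least 1 count were kept. In MS+EA against MS they were 0, 1 with DESeq2 (Col11a1) and 2 with that filter. In MS+EA against Control they were 1, 3 with DESeq2, 14 with that filter, 0 with at least 10 counts in every rat, 4 with only the 6 rats compared, and 0 with B4 and C16 both left out, an alternative chosen after seeing the data. Leaving out each rat gave 0 to 0, 0 to 0 and 0 to 8 in the 3 comparisons, with 8 without B4. At an unadjusted p under 0.05, in either direction and over every member each filter kept, the counts of 11, 4 and 17 became 4 (without B4) to 13, 1 (without B6) to 6 and 7 (without C16) to 19, 7 without A2 in the first, and 6 in the first with B4 and C16 both left out. All genes called were 4, 3 and 230, with ranges of 2 to 22, 1 to 4 and 71 to 304 over the rats left out.

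Alternatives were followed for 38 pairs of a collagen and a comparison, over 21 named collagens. These were the pairs at an unadjusted edgeR p under 0.05, and Col4a1 and Col4a2 in each comparison. Choosing pairs by p favours a stable sign. The sign turned in 8 of their 636 alternatives, all for Col4a1 and Col4a2. Outside this set, pairs that turned without B4 included Col1a1, Col1a2, Col3a1 and Col4a5 in MS+EA against MS and Col18a1 in MS against Control. Their values are given with each gene. Other pairs outside this set were not counted, so more may depend on B4. In MS against Control, Col4a1 was -0.00195 without A2 (highest 0.37), and Col4a2 was -0.0434 without A1, -0.00247 without A2 and -0.00464 without B3 (highest 0.17). In MS+EA against Control, Col4a1 was 0.17 without A6, 0.0606 without C16 and 0.0655 with B4 and C16 both left out (lowest -0.21), and Col4a2 was 0.0132 without A6 (lowest -0.21). Of the others, 577 kept their direction and side of the threshold, 43 passed it and 8 no longer did, all for Col26a1 in MS+EA against Control. The causes were not tested. The medians of both classes moved by less than the SD between rats of the class medians, although some changed by over 1.5 times without a single rat, as given with the classes. Refitting the pathway and marker lists without B4 or C16 was chosen after seeing the data. No paired analysis was possible because the groups share fewer than 2 replicate numbers and hold different rats. Depth limits chains under about 10 reads per rat.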

Other observations

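Among the partner lists, MS+EA against Control gave further values at an unadjusted edgeR p under 0.05, with no gene past both thresholds. Higher were 2 of 20 genes for chain folding, 3 of 14 for propeptide cleavage and crosslinking, 5 of 14 basement membrane partners, 4 of 11 fibril partners, 3 of 8 receptors and 4 of 12 for breakdown, and lower were 1 of the 14 for propeptide cleavage and crosslinking, 1 of the 8 receptors and 3 of the 12 for breakdown, where 11.9% of all genes were higher and 10.6% lower. Without C16 the counts of higher genes were 0, 1, 2, 2, 2 and 2 in the same order of lists (10% of all genes). The laminin chain Lama2 had 14.1, 14.4 and 14.4 CPM in Control, 18.5, 37.7 and 18.1 CPM in MS and 23.8, 19.2 and 33.0 CPM in MS+EA, with a log2 fold change of 0.82 (edgeR adjusted p = 0.0857). Every separated rat lay above every Control rat. Ddr2, a receptor for fibrillar collagen, had 23.9, 33.8 and 19.6 CPM in Control, 24.2, 80.6 and 46.3 CPM in MS and 52.8, 59.3 and 57.4 CPM in MS+EA, with a log2 fold change of 1.13 (edgeR adjusted p = 0.0588). C10, the lowest MS+EA rat for the type I and III chains, was the highest MS+EA rat for Ddr2.

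Gpr56, a receptor for type III collagen in the developing cortex, went the other way, with 195, 149 and 174 CPM in Control, 153, 168 and 145 CPM in MS and 145, 119 and 134 CPM in MS+EA. All 3 MS+EA rats lay below the Control rats, with a log2 fold change of -0.38 (edgeR adjusted p = 0.0507). The protease inhibitor Timp2 and the protease Ctsb had log2 fold changes of -0.26 and -0.21 (edgeR adjusted p = 0.0786 and 0.145), while the protease Ctsk had 0.52 (edgeR adjusted p = 0.181). In the list for chain folding, the prolyl hydroxylases P4ha1 and P4ha3 had 0.21 and 0.63 (edgeR adjusted p = 0.138 and 0.202).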
